A study of Rattus norvegicus with 24 samples.

Results

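Dusp4, Dusp5, Dusp6, Spred1, Spred2, Spry1, Spry2 and Spry4 are 8 genes for proteins that brake the mitogen-activated protein kinase (MAPK) cascade. They were taken by symbol from the annotated table of rat cerebellum arrays, and all 8 were found among 18137 measured genes, each with a single probe set. They were chosen because their levels in ammonia-infused rats were already known from these arrays, so differences with ammonia are given here as a description, with no test.

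Growth factor receptors at the cell surface activate Ras, which starts a relay of the kinases Raf, MEK and ERK. Sprouty (Spry) and Spred proteins act near the top of this relay, between the receptors and Raf, and the dual-specificity phosphatases (Dusp) act at its end by removing the activating phosphates from ERK and related kinases. Many of these brakes are themselves transcribed in response to ERK activity, so they form a negative feedback, and in neurons their messages also follow synaptic activity.

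Cerebella of Sprague-Dawley rats were profiled on 24 Affymetrix arrays in 5 groups. Sham rats (n = 5) had control surgery, and PCA rats (n = 5) were examined 6 months after portocaval anastomosis, a shunt that leads portal blood past the liver and serves as a model of hepatic encephalopathy. The 3 infused groups also carried the shunt for 6 months and received 10 infusions, one every 2 weeks. PCA+NH3 (n = 5) received ammonium acetate at 20 µl/min over 3 h, PCA+LPS (n = 5) received the bacterial endotoxin lipopolysaccharide at 5 mg/kg, and PCA+NH3+LPS (n = 4) received both agents. The labels do not say whether Sham and PCA rats received a vehicle infusion, nor that each array came from a separate animal, so p-values measure only the spread between these arrays.

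Levels are log2 values deposited by the authors to 1 decimal, where a difference of 1 is a 2-fold change. Markers fitted the labelled tissue, since 10 of 10 granule cell markers and 9 of 10 Purkinje cell markers lay above 6.33, the median level of all genes. Choroid plexus, a tissue of the ventricle wall, was unevenly present. The mean of 13 choroid plexus and ependyma markers, expressed as log2 deviation from the mean over all arrays, ran from -0.80 to -0.21 in Sham and from -0.64 to 0.20 in PCA. It ran from -0.79 to 0.38 in PCA+LPS, from -0.45 to 2.92 in PCA+NH3 and from -0.70 to 2.71 in PCA+NH3+LPS. The 4 arrays highest in these markers were PCA+NH3 arrays 5, 2 and 1 and PCA+NH3+LPS array 3, all from ammonia groups, and ammonia differences are therefore also given without them.

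Dusp4, a nuclear phosphatase of ERK and JNK, was the brake with the largest ammonia difference. Its log2 levels were 6.2, 6.7, 6.1, 6.9 and 6.6 in Sham, 7, 6.2, 6.4, 6.7 and 6.7 in PCA, and 6.2, 6.5, 6.3, 6.3 and 6.4 in PCA+LPS. They were 5.8, 5.2, 5.9, 5.5 and 5.8 in PCA+NH3 and 5.8, 6.2, 5.9 and 5.7 in PCA+NH3+LPS. All 5 PCA+NH3 arrays thus lay below every Sham, PCA and PCA+LPS array, and 1 PCA+NH3+LPS array at 6.2 tied with the lowest shunted arrays without ammonia. The ammonia difference, taken as the mean of both ammonia groups minus the mean of PCA and PCA+LPS, was -0.70 (SE 0.12), a level 0.616-fold that without ammonia. In whole tissue, fewer cells that express a gene and less RNA per cell cannot be told apart.

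Spry4, a Sprouty protein that restrains growth factor signalling to Ras, had the next largest difference and varied more from array to array. Its log2 levels were 7.9, 6.5, 6.3, 7.3 and 7.3 in PCA and 6.3, 7, 6.9, 6.6 and 7.1 in PCA+LPS, against 5.7, 6.4, 6.2, 6.7 and 6.3 in PCA+NH3 and 6.5, 6.4, 6.3 and 6.3 in PCA+NH3+LPS. Sham arrays read 6.1, 6.8, 6.8, 7.4 and 7.3. The ammonia groups lay at the low end, although the ranges overlapped with those of every other group. The ammonia difference was -0.60 (SE 0.19), a 0.659-fold level.

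Spred1 and Spred2 encode membrane-bound proteins that recruit the Ras inactivator neurofibromin. Spred1 was the steadiest of the 8 genes, at 9.2, 8.9, 9, 9 and 9 in PCA and 8.7, 8.8, 8.9, 8.8 and 9 in PCA+LPS, against 8.7, 8.7, 8.6, 8.8 and 8.7 in PCA+NH3 and 8.5, 8.5, 8.7 and 8.6 in PCA+NH3+LPS. Every array of both ammonia groups lay below every PCA array, and Sham arrays spanned 8.6 to 9.1. The ammonia difference of Spred1 was -0.29 (SE 0.06).

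Spred2 read 8.9, 8.6, 8.3, 9 and 8.8 in PCA and 8.1, 8.6, 8.5, 8.4 and 8.8 in PCA+LPS. It read 8, 8.2, 8.1, 8.7 and 8.4 in PCA+NH3, 8.3, 8, 8.5 and 8.5 in PCA+NH3+LPS, and 8.1, 8.2, 8.9, 8.9 and 8.7 in Sham. All groups overlapped, and the difference of -0.30 (SE 0.13) was close to that of Spred1 but with a larger SE.

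Dusp6, a cytoplasmic phosphatase specific for ERK, read 6.6, 6.4, 6.6, 6.6 and 6.7 in PCA and 6.3, 6.7, 6.4, 7 and 6.7 in PCA+LPS. It read 6.2, 6.3, 6.3, 6.5 and 6 in PCA+NH3 and 6.2, 6.1, 6.3 and 6.5 in PCA+NH3+LPS, a difference with ammonia of -0.33 (SE 0.12). Sham arrays read 6.2, 5.5, 6.3, 6.7 and 6.4, so the ammonia groups, at 6.26 ± 0.18 (SD, n = 5) and 6.28 ± 0.17 (SD, n = 4), stood at the Sham level of 6.22 ± 0.44 (SD, n = 5) and below the PCA level of 6.58 ± 0.11 (SD, n = 5).

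Dusp5, the nuclear phosphatase specific for ERK, read 9.2, 8.8, 9.2, 9.6 and 9.5 in PCA, 8.2, 8.8, 9.3, 8.9 and 8.7 in PCA+LPS, 8.2, 8.8, 8.6, 9.4 and 9 in PCA+NH3, and 9, 8.2, 8.9 and 9.1 in PCA+NH3+LPS. Its ammonia difference of -0.22 (SE 0.19) was about the size of its SE. In Sham it read 9.2, 9.2, 9.5 and 9.1 in 4 arrays and 7.9 in array 1.

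Spry1 and Spry2, the remaining Sprouty genes, had the smallest ammonia differences. Spry2 ranged from 7.5 to 8.1 over all arrays and had an ammonia difference of -0.09 (SE 0.07). Spry1 ranged from 6.5 to 7.3 and had one of 0.01 (SE 0.09), which lay between -0.04 and 0.05 when single arrays were left out.

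**Figure D1:**
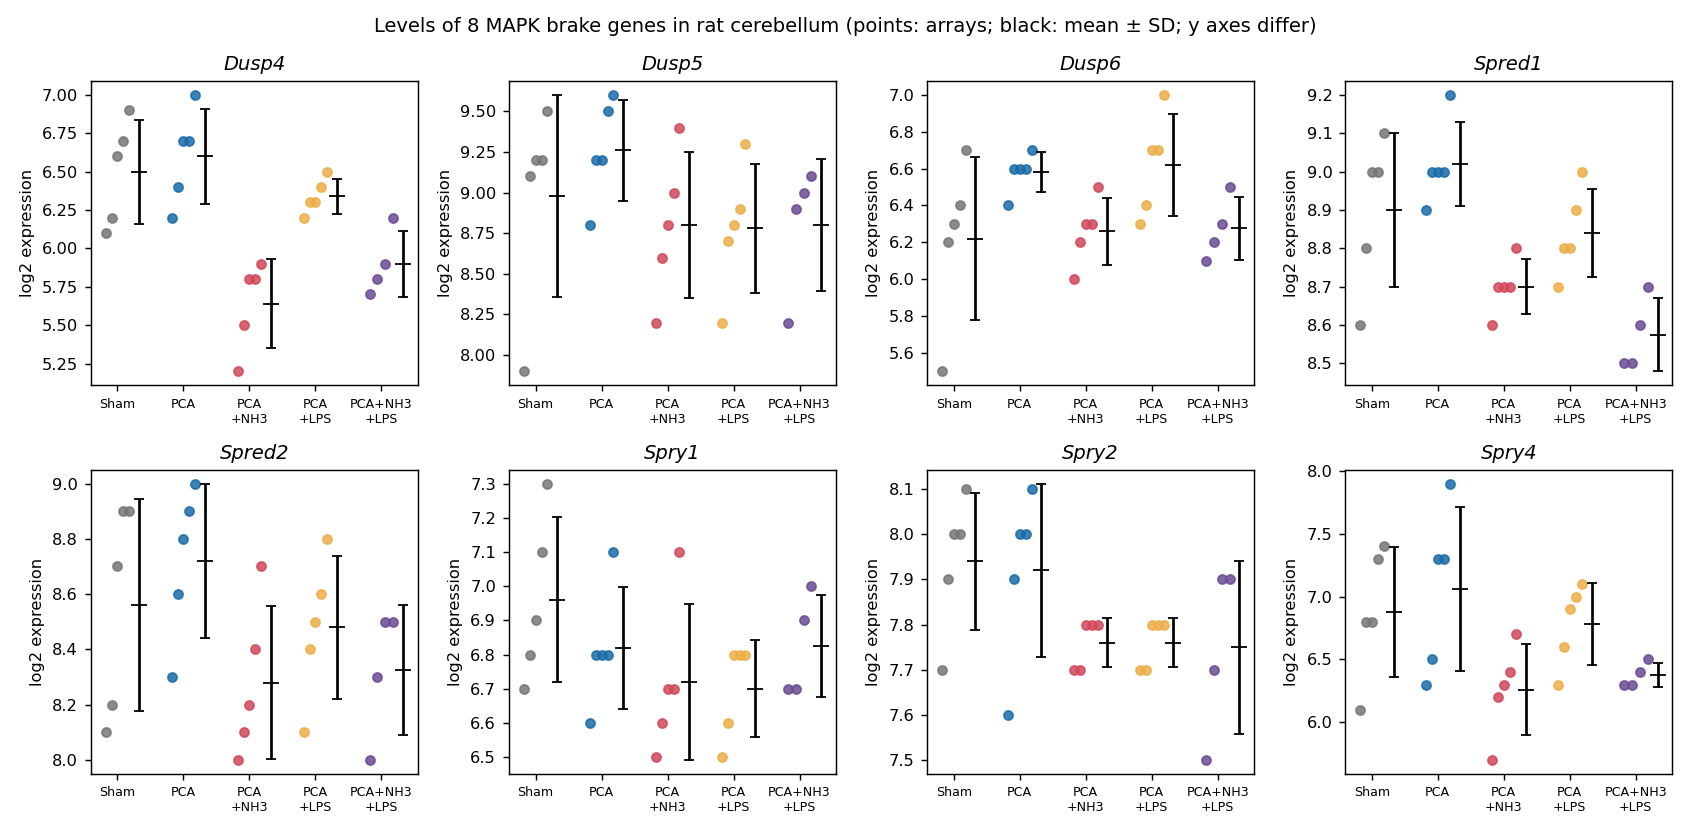
Log2 expression of each of the 8 genes in the 5 groups, with 1 point per array and the group mean ± SD in black, each panel with its own vertical axis. The 5 PCA+NH3 arrays of Dusp4, between 5.2 and 5.9, sit below every array of the groups without ammonia, whereas Spry1 groups overlap throughout.

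Read together, 7 of 8 genes had a negative ammonia difference, with a median of -0.295, where 52.6% of all genes were negative with a median of -0.005. For 4 of 8 genes (Dusp4, Dusp6, Spred1 and Spry4) none of the 9 ammonia arrays reached the average of the 10 shunted arrays without ammonia, a separation that 2.15% of all genes showed. Because this contrast chose the genes, these counts only describe how they were chosen. Without the 4 arrays high in choroid plexus markers the differences were -0.67 for Dusp4, -0.50 for Spry4, -0.31 for Spred1 and -0.27 for both Spred2 and Dusp6. On the same arrays Dusp5 stood at -0.14, Spry2 at -0.06 and Spry1 at 0.05, and the part of the choroid plexus markers in the ammonia differences was not otherwise tested.

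The ammonia difference can be read separately in rats without and with endotoxin. PCA+NH3 minus PCA was -0.96 (SE 0.16) for Dusp4, -0.80 (SE 0.26) for Spry4, -0.46 (SE 0.26) for Dusp5 and -0.44 (SE 0.17) for Spred2. PCA+NH3+LPS minus PCA+LPS was -0.44 (SE 0.17) for Dusp4, -0.41 (SE 0.27) for Spry4, 0.02 (SE 0.28) for Dusp5 and -0.16 (SE 0.18) for Spred2. These 4 genes thus had smaller negative values, or none, when LPS was present. Spry2 and Spry1, with the smallest ammonia differences, shifted the same way. Spry2 stood at -0.16 (SE 0.09) without LPS and -0.01 (SE 0.10) with it, and Spry1 at -0.10 (SE 0.12) and 0.125 (SE 0.125). Spred1 stood at -0.32 (SE 0.08) and -0.27 (SE 0.09), and Dusp6 at -0.32 (SE 0.16) and -0.35 (SE 0.17), so their values were close in both settings.

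Among the 5 arrays of PCA+NH3, Dusp4 and Spred1 lay below all PCA arrays without overlap, as 0.187% of all genes did. No brake gene separated PCA+NH3+LPS from PCA+LPS in this way, where 0.402% of all genes lay lower, and Spred1 alone separated PCA+NH3+LPS from PCA, where 0.436% did. Against Sham, Dusp4 was lower without overlap in PCA+NH3 (0.198% of all genes), with a difference of -0.86 (SE 0.16). It differed from Sham by -0.60 (SE 0.17) in PCA+NH3+LPS. These comparisons with Sham share the ammonia arrays with those that chose the genes and are likewise a description.

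**Figure D2:**
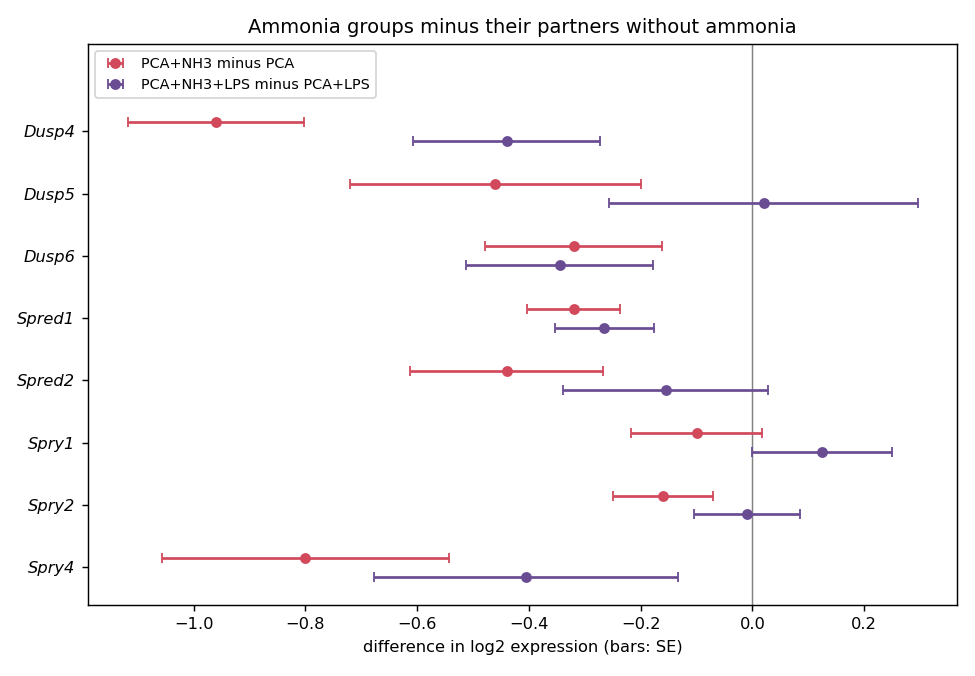
Difference in log2 expression between ammonia groups and their partners without ammonia for the 8 genes, with PCA+NH3 minus PCA in red and PCA+NH3+LPS minus PCA+LPS in purple, and bars showing the SE. Dusp4 stands at -0.96 without LPS and -0.44 with LPS, while Spred1 and Dusp6 have nearly the same value in both.

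Whether the ammonia difference changed with LPS was tested as an interaction with limma, and 0 of 8 genes passed, where 0.0% of all 18137 genes did. At an unadjusted p under 0.05 there was 1 of 8 brake genes against 3.72% of all genes. This was Dusp4, whose difference with ammonia was less negative by 0.52 (SE 0.23, 95% interval 0.04 to 1.00, limma adjusted p = 0.997) when LPS was present. The interaction was negative for 1 of 8 genes, where 47.6% of all genes were negative, with Dusp5 at 0.48 (SE 0.38), Spry4 at 0.40 (SE 0.37) and Spred2 at 0.29 (SE 0.25), and Dusp6 the negative member at -0.03 (SE 0.23). The median was 0.255, against 0.005 over all genes. The arrays are the same as those that chose the genes, and the interaction is built from ammonia differences that were already known. A gene chosen for a low PCA+NH3 minus PCA leans towards a positive interaction. The signs, intervals and p-values of the interaction are therefore a description, from which no conclusion is drawn.

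LPS itself was asked about by comparing both LPS groups with PCA and PCA+NH3, so that each side holds 1 ammonia group. With limma 0 of 8 brake genes passed, where 0.0165% of all genes did, and at an unadjusted p under 0.05 there was 1 of 8 against 3.09% of all genes. That gene was Spred1, at -0.15 (SE 0.06, 95% interval -0.28 to -0.03, limma adjusted p = 0.997). Its level was 8.84 ± 0.11 (SD, n = 5) in PCA+LPS and 9.02 ± 0.11 (SD, n = 5) in PCA, and 8.58 ± 0.10 (SD, n = 4) in PCA+NH3+LPS and 8.70 ± 0.07 (SD, n = 5) in PCA+NH3. Dusp4 had an LPS difference of 0 (SE 0.12, 95% interval -0.24 to 0.24), the average of -0.26 (SE 0.16) for PCA+LPS minus PCA and 0.26 (SE 0.17) for PCA+NH3+LPS minus PCA+NH3. Dusp5 stood at -0.24 (SE 0.19), Spred2 at -0.10 (SE 0.13), Spry2 at -0.09 (SE 0.07), Spry4 at -0.08 (SE 0.19), Spry1 at -0.01 (SE 0.09) and Dusp6 at 0.03 (SE 0.12). In all, 6 of 8 were below 0, as were 47.5% of all genes. The LPS arrays of each brake overlapped with the shunted arrays without LPS, from which 0.011% of all genes stood higher without overlap.

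The shunt alone was examined as PCA minus Sham, a comparison that shares the PCA arrays with the ammonia difference. PCA is on the higher side of that difference, so a gene chosen on it leans towards a positive value here. The signs, intervals and p-values of PCA minus Sham are therefore a description. With limma 0 of 8 genes passed, as did 0.0% of all genes, and 1 of 8 had an unadjusted p under 0.05 against 3.59% of all genes. Dusp6 was that gene, higher in PCA by 0.36 (SE 0.16, 95% interval 0.03 to 0.69, limma adjusted p = 0.987), and by 0.18 when Sham array 2, at 5.5, was left out. Dusp5 stood at 0.28 (SE 0.26), or 0.01 without Sham array 1, Spry4 at 0.18 (SE 0.26), Spred2 at 0.16 (SE 0.17), Spred1 at 0.12 (SE 0.08) and Dusp4 at 0.10 (SE 0.16). Spry2 at -0.02 (SE 0.09) and Spry1 at -0.14 (SE 0.12) were the 2 of 8 below 0, where 45.3% of all genes were. PCA and Sham arrays overlapped for every brake, where 0.0662% of all genes were lower and 0.0882% higher without overlap.

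**Figure D3:**
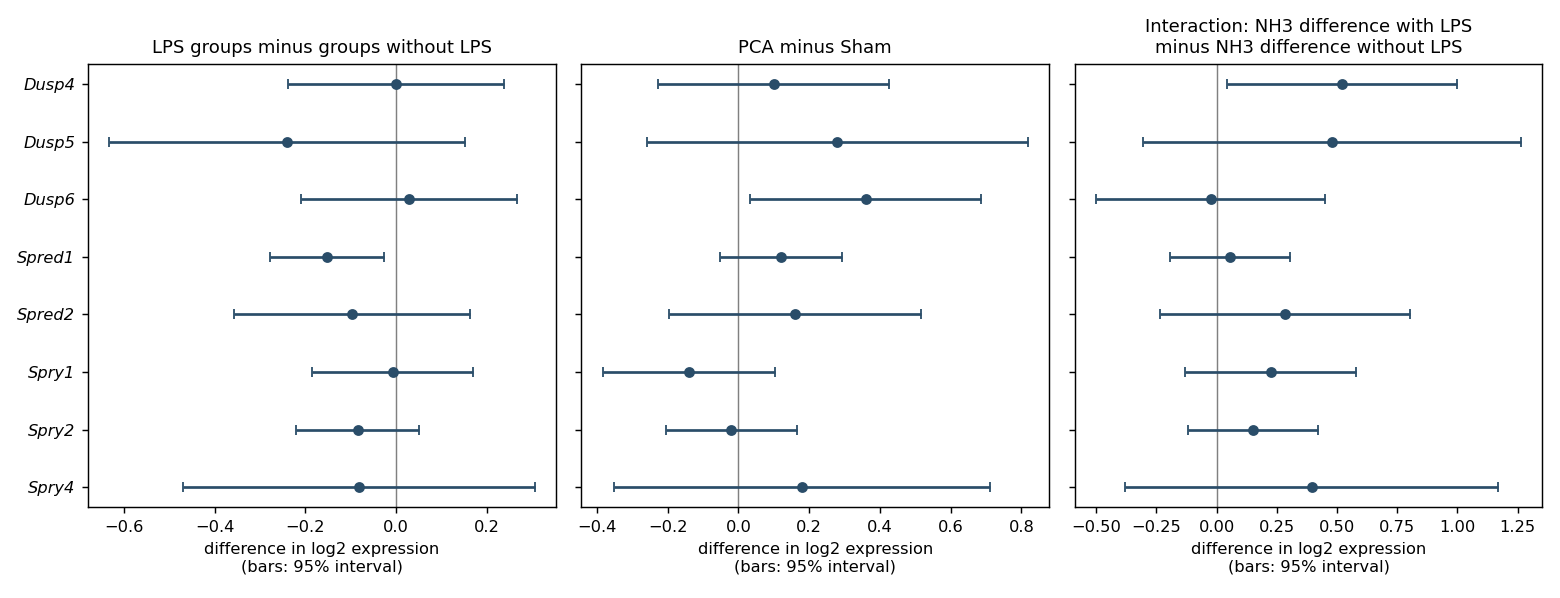
Differences in log2 expression of the 8 genes with 95% intervals from limma for LPS (left), for PCA minus Sham (middle) and for the interaction of ammonia with LPS (right), on separate horizontal axes. The intervals of Spred1 for LPS, Dusp6 for PCA minus Sham and Dusp4 for the interaction leave out 0 before adjustment, and 0 of 8 genes passed after it. The interaction is built from ammonia differences known when the genes were chosen, and PCA minus Sham shares the PCA arrays with them.

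In the order of their 5 group means the genes differed in where a step exceeded the SD of the neighbouring groups. For Dusp4 this was the step of 0.44 from PCA+LPS, at 6.34 ± 0.11 (SD, n = 5), to PCA+NH3+LPS, at 5.90 ± 0.22 (SD, n = 4). PCA, at 6.60 ± 0.31 (SD, n = 5), Sham, at 6.50 ± 0.34 (SD, n = 5), and PCA+LPS did not differ beyond their spread, nor did PCA+NH3+LPS and PCA+NH3, at 5.64 ± 0.29 (SD, n = 5). Spry4 had its step at the same place, 0.405 from 6.78 ± 0.33 (SD, n = 5) in PCA+LPS to 6.38 ± 0.10 (SD, n = 4) in PCA+NH3+LPS. Spred1 stepped by 0.14 from PCA+LPS to PCA+NH3 and by 0.125 from there to PCA+NH3+LPS. For Dusp6 the step was 0.305, from PCA to PCA+NH3+LPS, with PCA+LPS above it and PCA+NH3 and Sham below it within their spread. Neighbouring groups of Dusp5, Spred2, Spry1 and Spry2 did not differ beyond their spread. Steps from a group without ammonia to one with it follow the contrast that chose the genes, so they only describe that choice. How many of all genes had such a step was not computed.

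The spread among arrays of the same group was itself uneven across the brakes. The pooled within-group SD was 0.451 for Dusp5 and 0.445 for Spry4, which placed them at the 97.6th and 97.5th percentile of all genes. Spred2 (0.294), Dusp4 and Dusp6 (0.268 each) also lay above the all-gene median of 0.158. Spry1 was nearer to it at 0.194, and Spry2 (0.140) and Spred1 (0.127) lay below it. The levels of Dusp5 and Spry4 therefore moved from array to array within a treatment more than those of most genes.

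Part of these movements went together. With each gene expressed as its deviation from the group mean, which removes the group differences that chose the genes, all 28 pairs of brakes had a positive Pearson correlation over 24 arrays, with a median of 0.35 and a highest of 0.746, where 50.5% of all gene pairs were positive with a median of 0.0. In a two-sided permutation test within groups, adjusted over the 28 pairs, 6 pairs passed by Pearson correlation. A correlation of at least 0.582, the lowest of these 6, was found in 7 of 28 brake pairs and in 1.96% of all gene pairs. Spred2 was in 4 of them. It followed Spry4 with r = 0.746 (permutation p = 0.00017, adjusted 0.00434; rho 0.725, p = 0.00102, adjusted 0.0143), Spred1 with r = 0.724 (permutation p = 0.00079, adjusted 0.00737; rho 0.767, p = 0.00017, adjusted 0.00476) and Dusp5 with r = 0.717 (permutation p = 0.00031, adjusted 0.00434; rho 0.641, p = 0.00233, adjusted 0.0217). Without the 2 arrays farthest from the median of the alphabetically first gene these correlations were 0.643, 0.734 and 0.634, in that order.

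The other pairs that passed were Spred2 with Spry2 (r = 0.616, permutation p = 0.00349, adjusted 0.0195; rho 0.575, p = 0.00619, adjusted 0.0405), Dusp5 with Spry4 (r = 0.633, permutation p = 0.00185, adjusted 0.0129; rho 0.494, p = 0.0242, adjusted 0.0799) and Spry2 with Spry4 (r = 0.582, permutation p = 0.00761, adjusted 0.0355; rho 0.484, p = 0.0247, adjusted 0.0799). Without the 2 farthest arrays they stood at 0.437, 0.460 and 0.555. Sham array 1 was the lowest Sham array in Dusp5, Spred2, Spry1, Spry2 and Spry4, and without it 4 pairs passed. These included Dusp5 with Spred2, Spred1 with Spred2 and Spred2 with Spry4, the 3 pairs that passed in every alternative tried for the correlations. Those alternatives were cyclic loess, leaving out the 4 arrays high in choroid plexus markers and leaving out each array, and a replicate block was not among them.

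Cell type markers moved with some of the same genes. On the same deviations the mean of the granule cell markers had r = 0.711 with Spry2, 0.638 with Spred2 and 0.617 with Spry4, and that of the Bergmann glia and astrocyte markers had r = -0.769 with Spry4, -0.677 with Dusp5 and -0.656 with Spred2. None of these granule cell and glia relations passed by Spearman correlation (permutation adjusted p from 0.0907 to 0.114). Marker means of brainstem, oligodendrocytes, microglia and endothelium also passed by Pearson correlation with some of these genes. Examples are r = -0.685 for brainstem with Spry4 and -0.780 for microglia with Dusp5. All these relations were chosen after the values were seen, and without Sham array 1 they did not pass by Pearson correlation. Their part in the covariation of the brakes was not tested.

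Dusp4, Dusp6 and Spry1 were in none of the pairs that passed by Pearson correlation. By Spearman correlation 6 pairs passed. Among them were Dusp6 with Spred2 (rho 0.593, permutation adjusted p = 0.0405) and Spred1 with Spry4 (rho 0.585, permutation adjusted p = 0.0432). Spry1 had correlations between 0.05 and 0.43 with the other genes, and Dusp6 reached 0.626 with Spred1 (permutation adjusted p = 0.0582). The correlations of Dusp4 with Dusp5, Dusp6, Spred1, Spred2, Spry1 and Spry2 ran from 0.00 to 0.23, and that with Spry4 was 0.517 (permutation p = 0.0377, adjusted 0.096). Without the 4 arrays high in choroid plexus markers the value of Dusp4 with Spry4 was 0.670 (permutation adjusted p = 0.0382). In that setting Dusp6 passed with Spred1 (r = 0.670, permutation adjusted p = 0.0467) and with Spred2 (r = 0.585, permutation adjusted p = 0.0467).

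**Figure D4:**
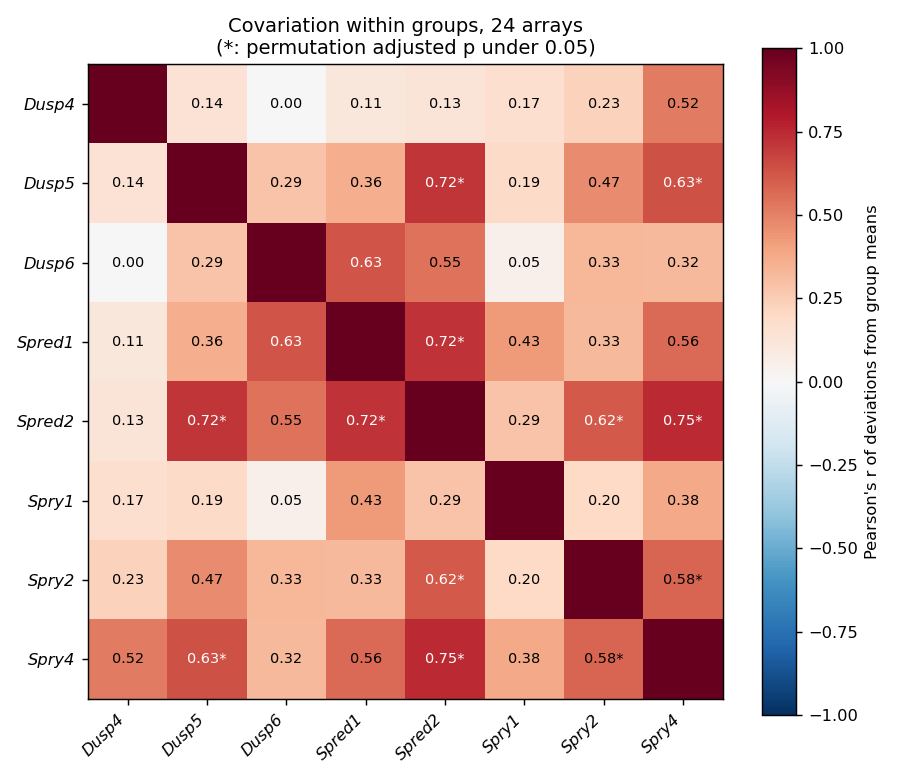
Pearson correlation between the 8 genes over 24 arrays, computed on deviations from group means, with an asterisk for each of the 6 pairs whose permutation adjusted p was under 0.05. All 28 pairs are positive, the darkest cells surround Spred2, and the row of Dusp4 is pale except for Spry4.

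**Figure D5:**
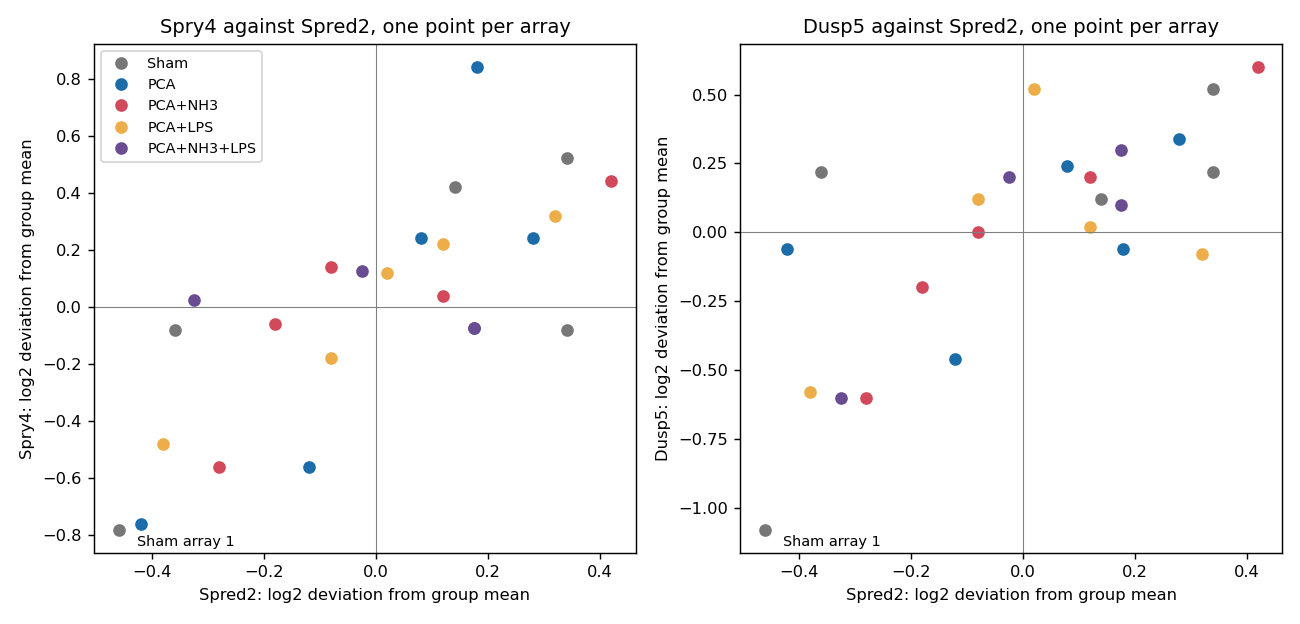
Deviation from the group mean of Spry4 (left) and Dusp5 (right) against that of Spred2, in log2 units, with 1 point per array coloured by group. Over all 24 arrays the points rise from lower left to upper right, although the 4 PCA+NH3+LPS arrays do not do so in the Spry4 panel, and Sham array 1 lies at the lower left of both panels.

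The promoters of Dusp5, Spred2 and Spry4 are shown as examples of the Dusp, Spred and Sprouty families among the genes that covaried. Their 3 pairings passed, although Dusp5 with Spry4 did not without Sham array 1 (r = 0.507, permutation adjusted p = 0.0675). The 3 pairings of Spred2, Spry2 and Spry4 passed as well. When each of the 24 arrays was left out in turn, Spry2 with Spry4 did not pass in 10 fits and Spred2 with Spry2 in 3. The promoters were read from the RefSeq promoter table of rat build GRCr8, which held 7 of the 8 genes and not Dusp4. Each run is the 250 bases before the annotated start, written 5′ to 3′ on the gene's strand. Capitals mark the core of the cyclic AMP response element (TGACG, or CGTCA on the other strand) and CArG boxes, the sequences bound by serum response factor. The runs lie at chr1:262543524-262543773 on the plus strand for Dusp5, chr14:98350327-98350576 on the plus strand for Spred2 and chr18:30702547-30702796 on the minus strand for Spry4.
Dusp5: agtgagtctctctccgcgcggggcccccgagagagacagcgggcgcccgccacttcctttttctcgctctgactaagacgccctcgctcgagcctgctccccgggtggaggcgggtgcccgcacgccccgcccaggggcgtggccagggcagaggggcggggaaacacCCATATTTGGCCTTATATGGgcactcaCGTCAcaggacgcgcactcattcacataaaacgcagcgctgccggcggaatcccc
Spred2: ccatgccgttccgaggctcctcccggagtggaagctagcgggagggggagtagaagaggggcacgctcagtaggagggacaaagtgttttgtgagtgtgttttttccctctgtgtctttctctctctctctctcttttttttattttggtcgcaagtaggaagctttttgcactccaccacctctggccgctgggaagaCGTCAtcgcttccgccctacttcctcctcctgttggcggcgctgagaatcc
Spry4: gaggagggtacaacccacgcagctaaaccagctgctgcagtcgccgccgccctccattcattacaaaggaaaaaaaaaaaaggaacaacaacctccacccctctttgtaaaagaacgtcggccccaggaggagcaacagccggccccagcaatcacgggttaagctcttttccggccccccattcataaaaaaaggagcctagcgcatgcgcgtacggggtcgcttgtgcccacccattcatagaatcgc

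Dusp5 held 1 response element core and 2 adjoining CArG boxes, Spred2 held 1 core, and Spry4 held neither. With Spry2, 3 of 7 brake genes held the core in any promoter listed for them, and 18.2% of 33360 rat promoters of the same length held it on either strand. Here and below, brakes are counted by gene and the shares over all by single promoter, so the units differ. The CArG box was in 1 of 7, against 1.5% of all promoters. The full element, TGACG followed by TCA, which contains the core, was in 0 of 7 (1.59% of all), as were the AP-1 site TGANTCA (6.35%) and the ETS site CCGGAAG (7.29%). The GC box GGGCGG was in 6 of 7 (30.5%). A match describes the letters in this window and does not show that a factor binds there.

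The rest of the pathway was followed through 128 genes other than the 8 brakes, and 0 of them passed in the ammonia difference (0.0165% of all genes did), in the LPS difference or in PCA minus Sham with limma. At an unadjusted p under 0.05 there were 7 of 128 for ammonia (5.47%, against 5.57% of all genes), 4 for LPS (3.12%, against 3.09%) and 8 for PCA minus Sham (6.25%, against 3.59%). The lists were drawn up with earlier results of these data known. Not every listed ligand is secreted (Fgf12, Fgf13 and Fgf14 are listed), and not every listed ERK target is transcribed in response to ERK (Elk1 is listed). The ammonia medians of the lists were -0.02 for 21 other brakes, 0.01 for 23 ligands, 0.04 for 19 receptors, 0.01 for 35 kinases and adaptors of the cascade and -0.01 for 30 ERK target genes. These medians lay close to that of all genes, whereas the median of the 8 brakes, which were chosen on this contrast, was -0.295.

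Among the other brakes the largest ammonia differences were those of Ptpn5, a neuronal tyrosine phosphatase that acts on ERK, at 0.33 (SE 0.28), Dusp16, a phosphatase of JNK and p38, at -0.20 (SE 0.06, limma adjusted p = 0.616), and Rasal1, a Ras inactivator, at 0.17 (SE 0.10). Among the ligands they were those of the insulin-like growth factors Igf2 at 0.38 (SE 0.36) and Igf1 at -0.27 (SE 0.11), and of Kitlg, the ligand of the Kit receptor, at -0.26 (SE 0.15). None of these 6 genes passed. Among the receptors they were those of the neuregulin receptor Erbb4 at -0.25 (SE 0.19), the platelet-derived growth factor receptor Pdgfra at 0.20 (SE 0.17) and the fibroblast growth factor receptor Fgfr2 at 0.18 (SE 0.14).

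Within the cascade, the scaffold Ksr1 stood at 0.19 (SE 0.13), the kinase Mknk2, which ERK activates, at -0.14 (SE 0.07), and the calcium-dependent Ras activator Rasgrf1 at -0.11 (SE 0.17). Of the ERK target genes, the nuclear receptors Nr4a3 and Nr4a2 stood at -0.53 (SE 0.26) and -0.46 (SE 0.31), and the ETS factor Etv5 at -0.28 (SE 0.10, limma adjusted p = 0.69). Etv5 averaged 7.20 in Sham, 7.46 in PCA, 7.08 in PCA+NH3, 7.22 in PCA+LPS and 7.05 in PCA+NH3+LPS. Its highest mean was in PCA and its lowest means in the ammonia groups, the order that Spred1 also had at its ends.

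Over all 24 arrays, group differences included, the genes ranked as most like Dusp4 in pattern were Pappa (r = 0.769, rho 0.758), Prag1 (r = 0.748), Klhl1 (r = 0.735), Kcnab1 (r = 0.730) and Kpna2 (r = 0.728, rho 0.820). The brakes and symbols with certain prefixes, given with the methods, were left out of this ranking. Among the brakes, Spry4 came nearest at r = 0.729 and Spred1 followed at 0.622, while Dusp6 was farthest at 0.254. The mean of the other 7 brakes was most like Trib1 (r = 0.885, rho 0.880), Banp (r = 0.871) and Map3k13 (r = 0.870). These correlations describe arrays that share their treatments.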

How the data were processed

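Total RNA of 24 cerebellum samples was hybridised to Affymetrix arrays, and the deposited log2 values, to 1 decimal, were made by the authors with RMA, per the submitters' processing notes. Neither its version nor any filter is given in the sources used here. Of 29016 probe sets, 19338 carried 1 gene symbol, and the probe set with the highest mean was kept, which left 18137 genes. The values ran from 1.5 to 13.5. Symbols were updated through RefSeq for 3388 probe sets. Groups came from the labels, which name no batch. A mean per group was fitted to all arrays with limma 3.58.1 in R 4.3.3 (lmFit and eBayes, two-sided, Benjamini-Hochberg over all genes, threshold 0.05), tested on simulated data. Deviations from group means were correlated, with 100000 permutations within groups. The number of arrays limits the precision, with a median SE of 0.0722 for the ammonia difference and 0.144 for the interaction.

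The members and lists were chosen with earlier results of these data known. Besides the 8 members, the text names the 3 genes of each list with the largest ammonia difference, the 5 genes most correlated with Dusp4 and the 3 most correlated with the mean of the others. Alternatives were cyclic loess, repeated quantile normalization, a mean log2 filter of 5, every probe set as a feature, only the groups compared, trended and robust eBayes, array weights, a replicate block, leaving out the 4 arrays with choroid plexus markers, the series' value table (0 values differed) and leaving out each array. For the correlations only cyclic loess, leaving out those 4 arrays and leaving out each array were used.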

Additional observations from a re-analysis of the deposited data

Results flagged for a closer look

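Dusp5 in Sham array 1 was 7.9, 1.2 below the nearest Sham array at 9.1, a gap of 0.75 of the group's range. It was the 1 such value in 40 gene and group combinations examined, where chance gives about 2.0. The same array had the lowest Sham values of Spred2 (8.1), Spry4 (6.1), Spry2 (7.7) and Spry1 (6.7). Its marker means, as log2 deviations from the mean over all arrays, were -0.59 for granule cells, -0.55 for Purkinje cells, 1.11 for oligodendrocytes and 1.33 for brainstem. Markers of cerebellar neurons were thus low and those of oligodendrocytes and brainstem high beside its low brake levels, and their part in those levels was not tested.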

How the results depend on the processing

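Over 10 alternatives other than single arrays, of which 2 were applied to the correlations, 380 of the values kept direction and, where a test was made, side of the threshold. The ammonia differences of the 8 brakes carry no test. The exceptions were the LPS difference of Dusp6 at -0.047 without the 4 arrays high in choroid plexus markers, that of Spry1 at 0.005 with a replicate block, the count of covarying pairs at 10 without those 4 arrays, and Spry2 with Spry4 at r = 0.553 (permutation adjusted p = 0.0528) after cyclic loess. Leaving out single arrays turned the direction of 7 small differences, which ran from -0.02 to 0.068 for Dusp6, -0.037 to 0.04 for Spry1 and -0.18 to 0.023 for Spry4 with LPS, from -0.08 to 0.06 for Spry2 and -0.03 to 0.37 for Spry4 in PCA minus Sham, from -0.11 to 0.07 for Dusp6 in the interaction and from -0.04 to 0.05 for Spry1 with ammonia. Covarying pairs numbered 4 to 9, with 4 without Sham array 1 or PCA array 3 and 9 without PCA+NH3 array 3. The cause was not tested. By Pearson correlation the relations of brakes with gene lists went from 20 to 0, and by Spearman correlation from 2 to 1, without Sham array 1, an alternative added after seeing the data. The ammonia difference of Dusp4 stayed between -0.75 and -0.65 without single arrays, and that of Spry4 between -0.70 and -0.50.

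Whether the replicate numbers pair the samples or mark a shared batch is not stated in the labels and was not tested. On deviations from group means, 23 of 46 same-numbered pairs correlated over 0.1. Their median correlation was 0.098, from -0.473 to 0.567, against a median of -0.011 for pairs with different numbers. Of 24 arrays, 12 correlated best with an array of their own number, and the count expected without pairing was not computed. The permutations within groups took no account of the replicate number. The permutation p-values of the correlations therefore do not allow for a batch shared by arrays of the same number. With the replicate number as a block, Dusp4 had an ammonia difference of -0.69, the median of the 8 brakes was -0.279, and 0 of 8 passed in the LPS difference, PCA minus Sham or the interaction.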

Other observations

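The within-group deviations of the brakes were also set against the means of the pathway and cell type lists, 112 relations chosen after the values were seen. By Pearson correlation with a permutation test, 20 passed after adjustment, 15 negative and 5 positive, in Dusp5, Spred2, Spry2 and Spry4, and by Spearman correlation 2 passed. Dusp5 and microglia markers had r = -0.780 (permutation p = 0.00029, adjusted 0.0325; rho -0.832, p = 1e-05, the smallest the permutations can give, adjusted 0.00112), and -0.750 without the 2 farthest arrays. Without Sham array 1, 0 of 112 relations passed by Pearson correlation, with r = -0.643 for Dusp5 with microglia markers (permutation adjusted p = 0.214) and -0.699 for Spry4 with Bergmann glia and astrocyte markers (permutation adjusted p = 0.214). By Spearman correlation 1 passed without that array, Dusp5 with microglia markers (rho -0.741, permutation adjusted p = 0.0123).

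Of the 30 ERK target genes, 15 were above and 15 below 0 in PCA minus Sham, with a median of 0.01. At the low end, 4 were lower in PCA than in Sham at an unadjusted p under 0.05 and did not pass after adjustment (limma adjusted p = 0.987 for each). They were Fos at -0.98 (SE 0.38), Nr4a3 at -0.88 (SE 0.36), Nr4a1 at -0.82 (SE 0.37) and Egr1 at -0.46 (SE 0.17), named after their values were seen. In the same comparison 6 of 8 brakes had a positive difference, with a median of 0.14, where 45.3% of all genes were below 0 with a median of 0.0. The brakes had been chosen on a comparison that uses the same PCA arrays as its higher side.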
